A study of Caenorhabditis elegans with 4 samples.

Results

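The LIN-13 binding regions described here are the peaks on the X chromosome in the combined peak list. They were chosen by chromosome alone and number 375 of 2769. LIN-13::EGFP was mapped by ChIP-seq, in which tagged protein crosslinked to DNA is pulled down and the attached DNA is sequenced. The series has 2 ChIP samples and 2 input DNA samples, grouped by their titles, and the deposited files used here are peak lists of ChIP replicate 1, of ChIP replicate 2 and of a combination. The labels conflict on this point: titles and source names give the same assignment, but the description fields call the samples titled ChIP input DNA and put the antibody with those titled input. All samples are whole hermaphrodites at the L4 larval stage, grown at 20 °C, of strain OP49. Its genotype is the mutation unc119(ed3) with the transgene wgIs49, which carries lin-13 joined to TY1, EGFP and FLAG tags beside a copy of unc119. No wild-type, mutant or male group is part of the comparison, the tag and the unc-119 rescue are shared by ChIP and input, and whole worms pool all tissues and germ cells. The transgene was made by bombardment, no source used here gives its insertion site, and lin-13 and unc-119 both lie on chromosome III in the RefSeq annotation of assembly WBcel235.

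LIN-13 has zinc fingers, works in the nucleus and belongs to the synMuv B genes, which act in chromatin repression and oppose vulval fates. SynMuv B genes are also known for keeping germline genes off in somatic cells. The X chromosome of C. elegans is set apart in both tissues: in the soma of hermaphrodites a condensin-based dosage compensation complex lowers its transcription, and in the germline it is largely silent for much of development. How a repressor of this group is laid out on X, against the autosomes, is therefore a natural comparison. Chromosomes II, IV and V served as the autosomes, because III has an excess of peaks and I is poorly found in the replicate lists. Chromosome I is set beside X for density, gaps under 5 kb and widths of 500 bp or more, where its combined values lie close to those of X.

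The values per peak are positions and the q-value of the authors' peak caller, PeakSeq, on build WormBase WS180. Strength below means −log10 of that q-value, so a larger value is a stronger call, and it is used to rank peaks within a list. Read counts, fold enrichment and depth per library are unknown, so a peak that is missing from a list may lie below its threshold. The replicate lists are shorter than the combined one, with 183 X peaks of 1309 in replicate 1 and 114 of 734 in replicate 2. Whether separate cultures gave the 2 replicates is not stated in the labels. All tests below take peaks, gaps or 1 Mb bins as units. Their p-values measure counting error or, where bins are the units, the spread between bins, and none measures the spread between cultures. With chromosomes as units, 1 X against 3 autosomes could not go below an exact permutation p of 0.25. Genes and sequences at the peaks are not analysed here, since no annotation or genome of build WS180 was used.

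The 10 strongest X peaks were all found in both replicates, and 9 of them were stronger in replicate 1 than in replicate 2. Each replicate 2 peak on X was also paired with the strongest replicate 1 peak that it overlaps. Replicate 1 was the larger in 77.6% of these 98 pairs, and taking the strongest on the replicate 1 side can favour replicate 1. The first, at 16929302 to 16931959, was 2658 bp wide and the second strongest peak of the whole combined list. Its combined strength was 138, with 87.3 for replicate 1 and 61.2 for replicate 2, and its borders moved by less than 100 bp between the lists. In each of the 3 lists it was the strongest peak on X.

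The second, at 4141995 to 4148897, was the widest X peak at 6903 bp and ranked 6 in the whole list with a strength of 102. The replicates resolved it into pieces. Replicate 1 had 3 peaks there, of 1709, 1708 and 2569 bp, with strengths of 13.7, 11.7 and 33.3. Replicate 2 had 4, of 1366, 1488, 826 and 1131 bp, with strengths of 11.5, 10.1, 5.67 and 12.6. In both replicates the rightmost piece was the strongest.

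The remaining 8 of these peaks had strengths between 37.1 and 52.9 and ranked 19 to 50 in the whole list. The peak at 8035802 to 8036933 had 52.9 in the combined list, with 25.1 in replicate 1 and 23.0 in replicate 2. At 11093750 to 11094363 the values were 43.4, 31.3 and 18.2, and at 2996332 to 2997420 they were 41.8, 25.7 and 14.02. These 3 peaks were 1132, 614 and 1089 bp wide, so strength did not follow width among them. The peaks at 16056078 to 16056797, 6296096 to 6296924 and 12362635 to 12363554 had combined strengths of 41.2, 40.1 and 39.3. The narrowest of the 10 was the 496 bp peak at 15840944 to 15841439, with 39.2 in the combined list and 18.7 in each replicate, the single case in which replicate 2 was marginally ahead. The last was the 4182 bp region at 6740708 to 6744889, which was 1 peak of 3698 bp in replicate 1 and 2 peaks of 546 and 1407 bp in replicate 2.

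X peaks were more thinly spread than those of II and IV. In the combined list X had 21.3 peaks per Mb (95% Poisson interval 19.2 to 23.5), close to chromosome V at 21.6 (19.7 to 23.7) and below IV at 27.7 (25.3 to 30.3) and II at 30.2 (27.5 to 33.1). The density on X was 0.817 times that of II, IV and V together (0.727 to 0.916, two-sided exact binomial test, adjusted p = 0.00234 over the 12 main tests). Against single chromosomes it was 0.704 times that of II (adjusted p = 1.86e-06, exact binomial test over 4 comparisons) and 0.768 times that of IV (adjusted p = 0.00026, exact binomial test). Against V the ratio was 0.984 (0.856 to 1.13, adjusted p = 0.834, exact binomial test). Against I, with 20.4 peaks per Mb, it was 1.04 (0.895 to 1.22, adjusted p = 0.788, exact binomial test). In the combined list a lower density on X was thus detected against II and IV, and not against V or I. In the replicate 1 list X had 10.4 peaks per Mb, above V at 9.68 and I at 6.90. In the replicate 2 list X had 6.47, above V at 5.85 and I at 2.39. These differences were not tested. The length of a chromosome runs to the last base that a peak of the 3 lists reaches, 17.6 Mb for X.

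Of the 3 lists, the combined one alone passed the density test. In replicate 1 X had 10.4 peaks per Mb and II, IV and V 12.1, a ratio of 0.861 (exact binomial p = 0.0766). In replicate 2 X had 6.47 and the others 7.09, a ratio of 0.912 (exact binomial p = 0.405). Among combined peaks that overlap a peak in both replicates the ratio was 0.940 (exact binomial p = 0.642). All of these ratios were below 1, and the 3 last named missed the threshold. With bins of 1 Mb as units, which allows for clustering of peaks, the interval of the combined ratio was 0.674 to 0.989 (quasi-Poisson model, p = 0.0388 without adjustment, where the exact binomial test gave 0.000422).

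**Figure D1:**
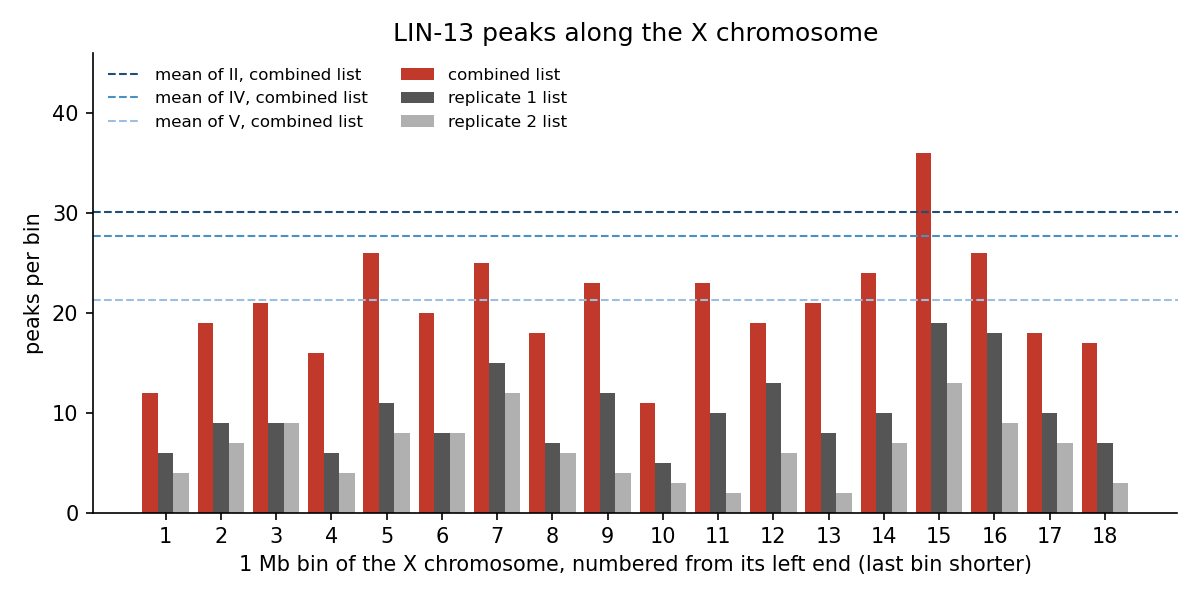
Peaks per 1 Mb bin along the X chromosome (bars: combined, replicate 1 and replicate 2 lists), with dashed lines at the mean per full bin of chromosomes II, IV and V in the combined list. Bin 15 holds 36 combined peaks and stands above the autosome means of 30.1, 27.7 and 21.2, while bins 10 and 1 hold 11 and 12.

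Along X the number of peaks per bin varied, and in the combined list its variance over the mean was slightly below that of IV and lower than on V or II. The 17 full bins held 21.1 ± 5.81 combined peaks (SD), from 11 to 36. Those of IV held 27.7 ± 6.87, a smaller SD relative to the mean than on X. The variance over the mean of these bins was 1.61 on X, 1.70 on IV, 2.91 on V and 3.90 on II. In replicate 1 it was 1.56 on X, 1.97 on IV, 2.78 on V and 2.80 on II. In replicate 2 X was not the lowest, with 1.55 on X, 1.54 on V, 1.88 on II and 2.34 on IV. The highest bin was 14 to 15 Mb, with 36 combined, 19 replicate 1 and 13 replicate 2 peaks, and it was also the highest bin in both replicate lists. The next full bins were 4 to 5 Mb and 15 to 16 Mb, each with 26 combined peaks. The shorter last bin, of 631169 bp, held 17 combined peaks, or 26.9 per Mb. The lowest were 9 to 10 Mb with 11 peaks, 0 to 1 Mb with 12 and 3 to 4 Mb with 16.

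No difference between the ends of X and its middle was detected in the combined list. The outer 25% at each end held 199 of the 375 peaks, or 53.1% (95% Wilson interval 48.0% to 58.1%), where their length makes up 50% (adjusted p = 0.384 by the exact binomial test). The last 25% alone held 117 peaks, against 82, 95 and 81 in the other parts from left to right. In replicate 2 the outer parts held 59.6% of X peaks (exact binomial p = 0.0487, unadjusted), and in replicate 1 they held 53.6% (exact binomial p = 0.375).

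The replicates differed most in the third 25% of X, from 8.82 to 13.2 Mb. Replicate 1 had 42 peaks there, against 38, 43 and 60 in the first, second and last parts. Replicate 2 had 15 there, against 30, 31 and 38. Of the 81 combined peaks in this stretch, 42 were in replicate 1, or 51.9% (41.1% to 62.4%), and 15 in replicate 2, or 18.5% (11.6% to 28.3%). In the other parts 29.5% to 32.9% of combined peaks were in replicate 2. The median strength of the combined peaks was 5.86 in this stretch and 5.38 to 6.39 in the other parts. This stretch was picked after its counts were seen, so it was not tested.

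Close neighbours were rarer on X than on II, IV and V, and no difference from I was detected. The median gap between neighbouring combined peaks was 28.1 kb on X (quartiles 6.46 to 65.5 kb, 374 gaps), against 12.8 kb on II, 14.5 kb on IV and 16.5 kb on V. The mean gap was 45.6 kb on X and 45.7 kb on V, so at nearly the same mean spacing the typical gap was longer on X. The standard deviation of the gaps over their mean was 1.11 on X, 1.36 on IV, 1.56 on V and 1.61 on II.

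Gaps under 5 kb made up 84 of 374 on X, or 22.5% (18.5% to 27.0%), where all chromosomes together had 34.9%. The shares were 36.1% on II, 35.0% on IV and 34.0% on V. The odds ratio of X against II, IV and V was 0.537 (0.406 to 0.705, two-sided Fisher's exact test, adjusted p = 3.4e-05). This test was added after the spacing was seen, and the 5 kb limit had been set for the description. With 1 Mb bins as units the odds ratio was 0.537 again (quasi-binomial p = 0.000217). Against chromosome V alone, which is close to X in density in the combined list, it was 0.563 (Fisher's exact p = 0.000277).

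No such difference was detected between X and chromosome I. The share of gaps under 5 kb on I was 24.8% (20.3% to 30.0%), and the odds ratio of X against I alone was 0.877 (0.605 to 1.27, Fisher's exact p = 0.469). In the replicate lists the share on I was 19.4% (12.9% to 28.1%) and 11.4% (4.54% to 26.0%). The rarity of close neighbours on X was thus detected against II, IV and V, and not against every autosome.

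Each replicate list showed the same direction against II, IV and V on its own. In replicate 1, 25 of 182 X gaps were under 5 kb, or 13.7% (9.48% to 19.5%), against 24.0% on II, IV and V (odds ratio 0.506, Fisher's exact p = 0.00303). In replicate 2 the count was 11 of 113, or 9.73% (5.52% to 16.6%), against 19.9% (odds ratio 0.435, Fisher's exact p = 0.0113). In both lists X had the lowest share of these 4 chromosomes. The spread of gaps relative to their mean was 1.11 on X and 1.20 to 1.52 on II, IV and V in replicate 1. In replicate 2 these values lay close together, at 1.18 on X and 1.20 to 1.25 on II, IV and V.

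**Figure D2:**
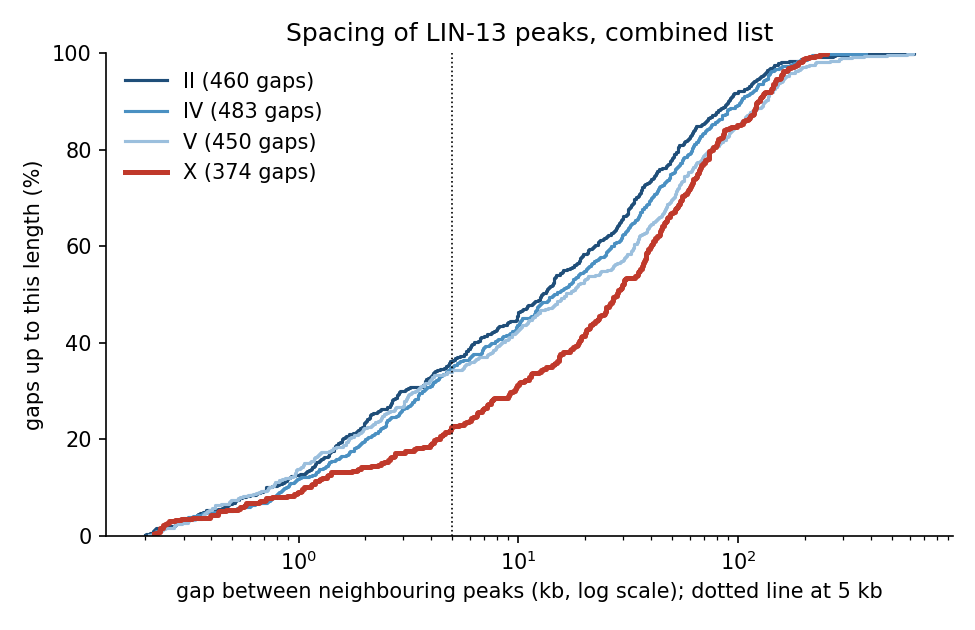
Cumulative share of gaps between neighbouring combined peaks up to each length (kb, log scale) on chromosomes II, IV, V and X. The X curve runs below the others between 1 and 10 kb, with 22.5% of gaps under 5 kb against 34.0% to 36.1%, and its median is 28.1 kb.

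**Figure D3:**
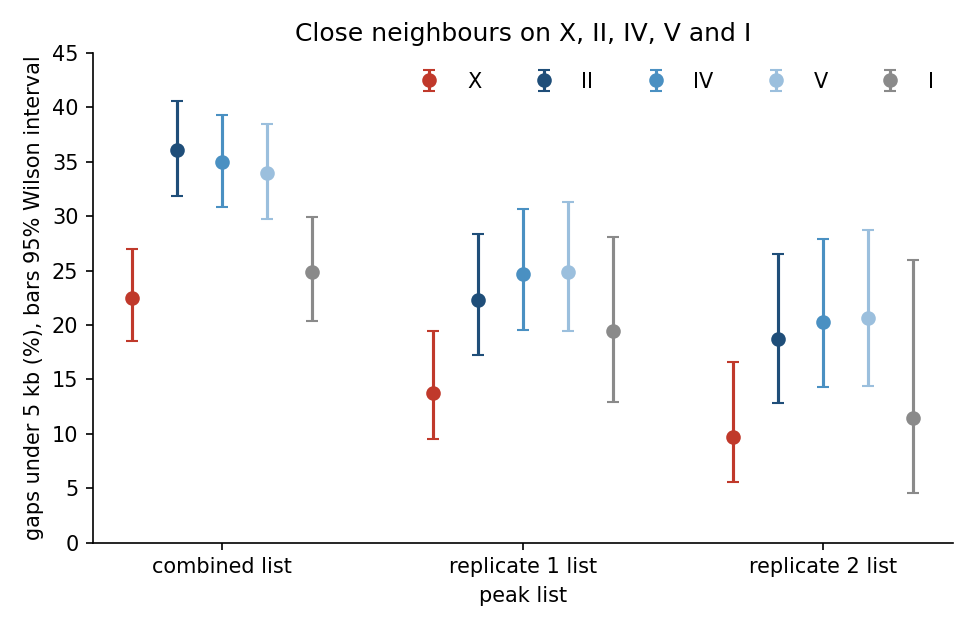
Share of gaps under 5 kb (%) on X, II, IV, V and I in each of the 3 peak lists, with 95% Wilson intervals that cover counting error only. X is the lowest point in every list, at 22.5%, 13.7% and 9.73%, and I lies nearest to it, with overlapping intervals.

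Gaps under 1 kb differed less, with 9.09% on X and 12.7% on II, IV and V (odds ratio 0.687, Fisher's exact p = 0.0592). The shortest gap on X was 220 bp, and no list had neighbours closer than 200 bp on the 4 chromosomes. Under 10 kb the shares were 31.3% and 44.1% (odds ratio 0.576, Fisher's exact p = 6.69e-06). When peaks less than 5 kb apart were joined into 1 region each, X had 16.5 regions per Mb and II, IV and V 16.9. The ratio of densities was then 0.974 (exact binomial p = 0.713). This joining was also tried after the spacing was seen. Its counts follow from the numbers of peaks and of gaps under 5 kb given above, so the ratio is not separate evidence.

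Most X peaks stood alone. With 5 kb as the limit, 235 of the 375 X peaks, or 62.7%, had no neighbour that near on either side, against 43.4% on II, IV and V. Groups of 3 or more such neighbours held 15.5% of X peaks and 29.4% of those on the autosomes. In replicate 1, 74.9% of X peaks and 58.8% of the others stood alone, and in replicate 2 the shares were 85.1% and 65.0%. These shares rest on the same gaps under 5 kb as above, so they are not separate evidence. Chromosome I, close to X in its share of such gaps, was not included here.

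The few tight groups on X were made of different kinds of peak. With neighbours under 2 kb apart, the group with the most members had 5 peaks in 7717 bp at 12660941 to 12668657, with strengths from 5.08 to 14.8, of which 3 were in replicate 1 and none in replicate 2. A group of 4 at 3111073 to 3117637 ran from 5.63 to 32.7, and 1 of its peaks was in both replicates. The other group of 4, at 14477144 to 14480540, had strengths of 3.64 to 4.75 only and none of its peaks in a replicate list.

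Long stretches of X held no peak, and the same was true of the autosomes. In the combined list gaps of 100 kb or more made up 46.7% of X and 47.3% of II, IV and V. The single shares were 38.7% on II, 43.6% on IV and 56.8% on V. The left end was bare up to base 324076 of the combined list, and up to 343741 and 409970 in replicates 1 and 2. The first combined peak began at 24.5 kb on II, 126 kb on IV and 8.13 kb on V, so the bare left end was longest on X. In the replicate lists the first peaks of these autosomes began at 124 to 217 kb in replicate 1 and 156 to 385 kb in replicate 2, which brings them nearer to X. There is 1 such stretch per chromosome, so no test was made, and whether reads can be placed there was not tested. The right end cannot be given, because the last peak itself, ending at 17631169, sets the length used.

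Within X the longest gap was 253 kb, from 1627445 to 1880747. It was followed by 234 kb from 3371658 to 3605749, 224 kb from 6296924 to 6520524, 209 kb from 1093620 to 1302301 and 200 kb from 6868015 to 7068329. All 5 lay in the left 50% of the chromosome, and all held 0 peaks in either replicate list. Nearly every replicate peak on X overlaps a combined peak, so the lack of replicate peaks there is not separate support. The longest gaps on IV, V and II were 382, 621 and 629 kb. In the combined list X thus had the smallest maximum of the 4. In the replicate lists it did not, with 675 kb against 427 to 1066 kb in replicate 1 and 1014 kb against 780 to 907 kb in replicate 2.

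In the combined list X peaks were wider at the middle of the range than those of II, IV and V, and no difference in broad peaks was detected. The median width was 535 bp on X (quartiles 382 to 782 bp), against 461 bp on II and on IV and 477 bp on V. The medians on X and on II, IV and V together were 531 and 483 bp in replicate 1, and 489 and 491 bp in replicate 2, so the replicate 2 list did not share this direction. Peaks of 1 kb or wider numbered 49 on X, or 13.1% (10.0% to 16.9%), where the whole list had 12.5%. On II, IV and V the share was 12.97% (odds ratio 1.01, 0.704 to 1.43, Fisher's exact test, adjusted p = 0.931). Peaks of 2 kb or wider made up 2.67% on X and 3.15% on the others (Fisher's exact p = 0.736). None of the 375 X peaks was under 100 bp, and such peaks were rare on II, IV and V too, with 7 of 1396, a difference that was not tested. The narrowest X peak was 108 bp at 15635198 to 15635305.

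Peaks of 500 bp or wider made up 54.9% of X peaks (49.9% to 59.9%), against 45.9% of the whole list and 44.9% on II, IV and V. The odds ratio was 1.49 (1.18 to 1.89, Fisher's exact test, adjusted p = 0.00234). This test was added after the widths were seen, and its adjusted p does not cover the choice of the limit. Against I alone, where the share was 54.4%, the odds ratio was 1.02 (0.746 to 1.40, Fisher's exact p = 0.938). Against II, IV and V it was 1.85 among peaks found in neither replicate, with 45.4% of 185 X peaks and 30.9% of 740 others (Fisher's exact p = 0.000258). Among peaks in both replicates the shares were 76.6% and 70.1% (odds ratio 1.40, Fisher's exact p = 0.241). The difference between these 2 odds ratios was not tested. The replicate lists did not pass the test, with 53.6% against 47.5% in replicate 1 (Fisher's exact p = 0.155) and 49.1% against 48.9% in replicate 2 (Fisher's exact p = 1).

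X peaks covered 256 kb in all, or 1.45% of X, against 1.64% of II, IV and V. The 49 peaks of 1 kb or wider accounted for 32.6% of the covered length on X and 35.6% on the autosomes. Of these 49, 28 were in both replicates, or 57.1% (43.3% to 70.0%), against 28.0% of the 157 peaks from 500 bp to under 1 kb and 13.02% of the 169 narrower ones. Their median strength was 13.9, against 6.31 and 4.95. Width and strength come from the same reads and are not independent measures, and their rank correlation across the 375 peaks was 0.461.

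The 10 X regions of 2 kb or wider included 7 found in both replicates, 2 in replicate 1 only and 1 in replicate 2 only. Beside the 3 already described, the region at 6252079 to 6255028 was 2950 bp wide with a strength of 35.0, and it was 2 peaks in replicate 1 and 1 in replicate 2. Those at 3114507 to 3116861 and 2969591 to 2972058 had strengths of 32.7 and 29.2. The region at 11790562 to 11793300 had 19.9, with 10.7 in replicate 1 and 4.97 in replicate 2. All 9 of these regions found in replicate 1 and all 8 found in replicate 2 were narrower or split there. They were chosen for their width in the combined list, so smaller widths in the other lists may follow from that choice.

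**Figure D4:**
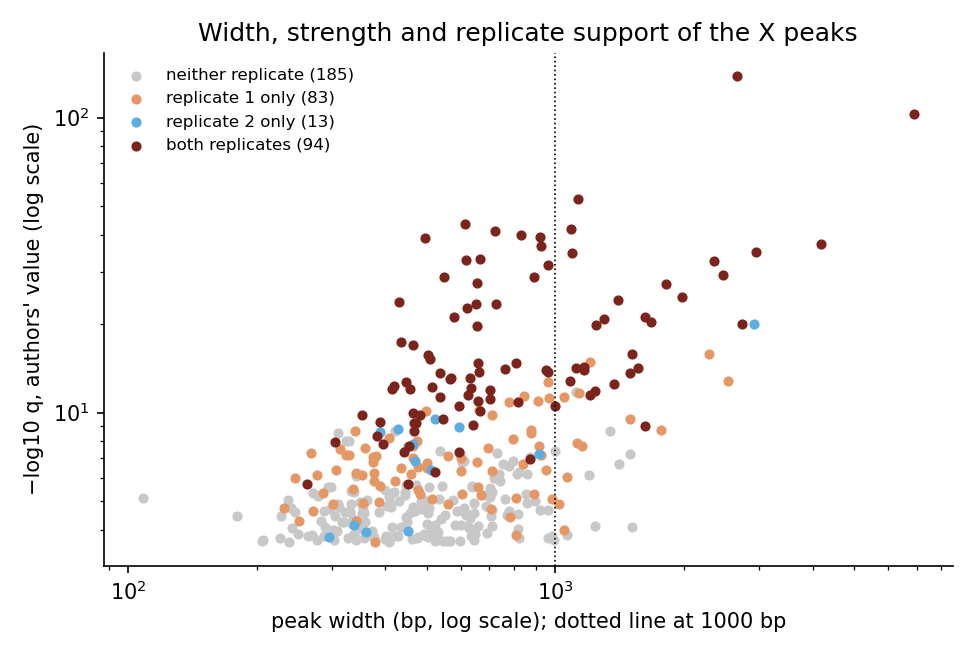
Width (bp, log scale) against strength (−log10 q, log scale) for the 375 combined X peaks, 1 point per peak, coloured by the replicate lists in which the peak was found. The 94 peaks in both replicates fill the upper part, and the strongest of the 185 in neither reaches 11.7.

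No difference in replicate support between X and II, IV and V was detected. On X, 94 of 375 combined peaks had at least 1 bp in common with a peak of each replicate, or 25.1% (20.9% to 29.7%), where the whole list had 21.8%. Replicate 1 alone had a further 83, replicate 2 alone had 13, and 185 were in neither, which is 49.3% (44.3% to 54.4%) beside 51.8% in the whole list. In all, 47.2% were in replicate 1 (whole list 44.7%) and 28.5% in replicate 2 (whole list 25.2%).

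On II, IV and V the share in both was 21.8% (odds ratio of X 1.20, 0.910 to 1.58, Fisher's exact test, adjusted p = 0.384). It was 43.3% in replicate 1 (odds ratio 1.17, 0.926 to 1.48, adjusted p = 0.384, Fisher's exact test). It was 25.5% in replicate 2 (odds ratio 1.17, 0.895 to 1.51, adjusted p = 0.384, Fisher's exact test). The intervals leave room for support on X up to about 1.58 times the odds on the autosomes. Requiring 50% of the combined peak to be covered gave 22.1% on X and 16.6% on the others for both replicates (odds ratio 1.43, Fisher's exact p = 0.0149, unadjusted). For replicate 1 it gave 44.8% and 38.9% (odds ratio 1.27, Fisher's exact p = 0.0436, unadjusted).

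Support went with strength on X. Both may rest on the same reads, as no source says what went into the combined list, so they cannot be taken as independent measures. In the strongest 25% of X peaks, with strengths of 9.52 and above, 78 of 94 were in both replicates, or 83.0% (74.1% to 89.2%). In the next 25% it was 16 of 94, or 17.0% (10.8% to 25.9%). In the weaker 50% no peak was in both, and 0 of 94 and 0 of 93 allow shares up to 3.93% and 3.97% by the Wilson interval. Replicate 1 held 96.8%, 63.8%, 21.3% and 6.45% of these 4 parts from strongest to weakest, and replicate 2 held 85.1%, 24.5%, 0% and 4.30%.

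Among peaks of like strength no difference in support was detected either. Over 10 strata of the peaks on X, II, IV and V by q-value, the common odds ratio for being in both replicates was 1.15 (0.726 to 1.81, exact Cochran-Mantel-Haenszel test, adjusted p = 0.694). It was 1.23 for replicate 1 (0.874 to 1.71, exact test, adjusted p = 0.384) and 1.13 for replicate 2 (0.751 to 1.68, exact test, adjusted p = 0.694). In the first stratum 40 of 43 X peaks and 130 of 135 others were in both, and in the second 33 of 43 and 92 of 134. The intervals leave room for higher or lower odds on X.

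**Figure D5:**
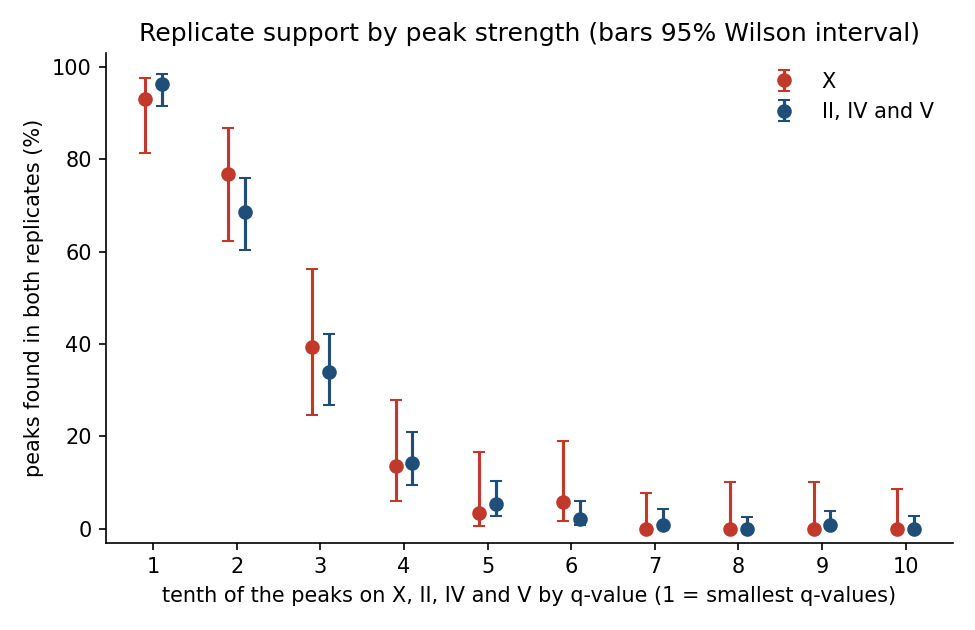
Share of combined peaks found in both replicates in each of 10 strata of the peaks on X, II, IV and V by q-value, for X and for the 3 autosomes together, with 95% Wilson intervals. The points of X and of the autosomes lie within each other's intervals in the first stratum (93.0% and 96.3%) and drop together to near 0 from the seventh on.

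No difference in strength between X and II, IV and V was detected. The median was 5.72 on X, 5.69 on II, 5.79 on IV and 5.78 on V. Of the X peaks 49.6% lay on the stronger side of the median q-value of the 4 chromosomes, against 50.1% of the others (odds ratio 0.981, 0.776 to 1.24, Fisher's exact test, adjusted p = 0.931). X held 20 of the strongest 100 peaks of the whole list and 2 of the strongest 10, where it holds 13.5% of all peaks in that list, and these counts were not tested. In replicate 2, 57.0% of X peaks and 47.6% of the others were on the stronger side (Fisher's exact p = 0.0878), with medians of 6.32 on X and 5.36 to 5.87 on II, IV and V. In replicate 1 the shares were 49.2% and 50.2% (Fisher's exact p = 0.867).

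The strongest X peaks with partial support were few. Of the strongest 50 on X, 47 were in both replicates. The first without such support was the 2912 bp region at 14560065 to 14562976, with a strength of 19.9, which was absent from replicate 1 and appeared in replicate 2 as 2 peaks of 6.24 and 4.16. Next among those in replicate 2 only were the peaks at 6207519 to 6208041 and 593248 to 593843, with combined strengths of 9.53 and 8.91. Those in replicate 1 only began with 11480841 to 11483123 at 15.8, 12664364 to 12665568 at 14.8 and 6520524 to 6523052 at 12.8.

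Peaks in neither replicate were weaker. They began with 3111073 to 3112190 at 11.7, 3106128 to 3106548 at 8.69 and 7793557 to 7794894 at 8.64. The first of these belongs to the group of 4 named above, and the second lies within 5 kb of it. Nearly every replicate peak on X was in the combined list, with 4 of 183 in replicate 1 and 1 of 114 in replicate 2 left out. Their strengths were between 4.05 and 4.56, and none overlapped a peak of the other replicate.

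The overlap of the replicates with each other on X was near that on II, IV and V. Of the 114 replicate 2 peaks on X, 98 overlapped a replicate 1 peak, or 86.0% (78.4% to 91.2%), against 84.5% on II, IV and V. In the other direction it was 95 of 183, or 51.9% (44.7% to 59.0%), against 49.4%. Across the 98 pairs on X the median strength was 8.42 in replicate 1 and 6.86 in replicate 2, and replicate 1 was larger in 76, or 77.6%. Across the 321 pairs on II, IV and V the medians were 7.44 and 5.99, and replicate 1 was larger in 73.5%. The correlation of the strengths on X was 0.716 by rank (Spearman) and 0.874 on the values (Pearson). On II, IV and V together it was 0.593 and 0.808. These are descriptions over pairs that share their libraries and unknown depths, and the difference was not tested.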

How the data were processed

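Peak lists of 2 ChIP samples and of a combination were used, and the input samples have no values used here. Per the file headers, the authors called peaks with PeakSeq on build WS180 and deposited a linear q-value for each peak, converted here to −log10 q. No source used here gives the caller's version, the aligner, the threshold or how the combined list was made. The members, limits and tests were chosen with earlier results of these data known. The tests of gaps under 5 kb and of widths of 500 bp, the comparisons with single chromosomes and the joining of peaks under 5 kb apart were added after these values were seen.

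Python 3.11.15, numpy 2.4.6, scipy 1.17.1, pandas 2.3.3, statsmodels 0.14.6 and R 4.3.3 were used. Overlap meant at least 1 bp, and the counts on X equalled those of bedtools 2.31.1. Gaps run from the end of a peak to the start of the next. Benjamini-Hochberg adjustment covers the 12 main tests and, as a family of its own, the 4 density comparisons with single chromosomes, and a p not called adjusted has no adjustment. All tests treat peaks or gaps as independent unless bins are named. Intervals cover counting error only or, where bins are named, the spread between bins. The calculations were tested on simulated data. Regions were named by a fixed rule: the strongest 10 on X, the strongest 3 of each support class, the longest 5 gaps, the 3 highest and lowest bins and the 3 largest groups. The regions of 2 kb or wider, split regions and the third and last 25% of X were chosen after their values were seen. Genes and sequences were not analysed here because the table at hand is of another build.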

Additional observations from a re-analysis of the deposited data

How the results depend on the processing

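Of 107 alternatives over 14 results, 79 kept the direction and the side of the unadjusted 0.05 threshold (or, without a test, moved by less than the spread between the replicate lists), and 6 turned the direction. The single-replicate lists stand for leaving out the other replicate. They gave a density ratio of 0.861 to 0.912, which did not pass, nor did 0.940 for peaks in both replicates, 0.984 against V alone and 0.974 with peaks under 5 kb apart joined. Against chromosome I alone, in the combined list, the ratio was 1.04, which turned the direction without passing. Against I in that list neither gaps under 5 kb (0.877) nor peaks of 500 bp or wider (1.02) passed. The odds ratio of gaps under 5 kb was 0.435 to 0.506 in the single lists, and it was below 1 and passed in the remaining alternatives except gaps under 1 kb (0.687) and I alone. For peaks of 1 kb or wider the odds ratio was 0.854 to 1.16 in the single lists, 0.923 without chromosome II, 0.940 in the stronger 50% and 0.842 with 2 kb as the limit, none past the test, and 1.49 with 500 bp, which passed. For peaks of 500 bp or wider it was 1.01 to 1.27 in the single lists, 1.31 in the stronger 50% and 1.40 for peaks in both replicates, none past the test. Support passed with 50% coverage for both replicates (1.43) and replicate 1 (1.27), and within strata against all 5 autosomes, chromosome I included, for replicate 2 (1.46) and both (1.54). The odds ratio of being on the stronger side of the median was 0.962 to 1.46 in the single lists, and the outer parts of X held 53.6% to 59.6%, the upper value passing. The median gap was 58.2 to 80.3 kb in the single lists and 60.1 kb in the stronger 50%, since fewer peaks lie farther apart. Pairing replicate peaks by centres up to 200 bp apart gave a rank correlation of 0.792. Support cannot be computed without a replicate. No paired analysis was possible because only ChIP peak lists were used, and the inputs of the same numbers entered no test. Depth is unknown, which limits what a weak peak missing from a replicate shows. Where a call changed, the cause was not tested.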
